A study of Mus musculus with 2 samples.

Results

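S100a8, S100a9, Csf3r, Cxcr2, Il1b and Retnlg, genes of mature neutrophils, were described together with Cxcl1, Cxcl2 and Cxcl5, the ligands that attract these cells. The 9 genes were chosen by symbol from the 32285 genes of the count tables, and all 9 were present in both tables. Transcripts were counted by Visium, in which a tissue section lies on a slide of barcoded spots and each spot captures RNA from a small region holding several cells. 1 section came from the lung of an untreated mouse (control lung), and 1 from the lung of a mouse with metastases after injection of 4T1 cells, an established mouse mammary tumour line, into the mammary fat pad (metastatic lung). The study's methods for this model name female BALB/c mice aged 6 to 8 weeks at injection, with lungs taken after 21 to 23 days. For the control mouse, strain, sex and age were not given in the sources used here. The comparison asks how far the neutrophil genes of a metastatic lung stood above those of a control lung, whether they entered the metastasis, and whether the ligands lay where the neutrophil genes did. With 1 section per condition there was no replicate and no test, and every interval below is an exact 95% interval that covers counting error only. Section, slide area and condition cannot be told apart.

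Neutrophils are made in the bone marrow and leave it under the control of G-CSF, whose receptor is encoded by Csf3r. They follow gradients of CXC chemokines with an ELR motif through the receptor Cxcr2, and they are stored in quantity in the capillaries of the lung. Mice that carry 4T1 tumours are known for a high number of circulating neutrophils.

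Cxcl1 and Cxcl2, neighbouring genes on chromosome 5, have promoters that share a form of the NF-κB motif, GGG and TTTCC separated by any 2 bases, and these stretches are shown because both genes were highest in the metastasis core. The letters below are RefSeq sequence of build GRCm38.p6, plus strand, from 120 to 41 bases before the start site, with matches on either strand in capitals. The Cxcl1 stretch lies at chr5:90891125-90891204 and the Cxcl2 stretch at chr5:90903779-90903858.
Cxcl1: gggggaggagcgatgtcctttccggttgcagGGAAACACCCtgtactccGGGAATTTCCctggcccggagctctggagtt
Cxcl2: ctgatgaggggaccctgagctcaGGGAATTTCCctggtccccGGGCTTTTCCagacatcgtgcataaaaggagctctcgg
Each promoter held 2 matches that did not overlap. The motif was chosen with these promoters already seen, and it occurred in 535 of 32851 promoters of 300 bases (1.63%). The letters were not found in that window of the other 6 members with an entry, S100a8, S100a9, Csf3r, Cxcr2, Il1b and Retnlg. Cxcl5 was the other member. A match of letters is a description and not a measured site.

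The control section held 1888 spots and 20329126 counts (median 9643.5 per spot), and the metastatic section 1110 spots and 14657881 counts (median 11334.5). The sections shared 858 spot barcodes, which are position codes of the slide and not shared cells. Clustering the metastatic section without the 9 genes and the other neutrophil genes gave a metastasis core of 151 spots, in a larger group of 123 (median 17232 counts) and a smaller group of 28 (median 5619). The core was the cluster that scored highest for a fixed list of core markers, so higher markers there follow from the choice. Of 9 core markers with enough counts, 6 were at least 2-fold higher there than in far spots, as were 23.3% of all genes. These were Krt18, Mki67, Top2a, Birc5, Ccnb1 and Cdk1. Krt7 and Cldn4 were lower and Krt14 had no count in the core, so the core is named by its cycling genes. Markers of AT1, AT2, airway and endothelial cells were all at least 2-fold lower in the core, as were 20.4% of all genes. The other spots were divided by distance from the core into the margin (to 200 µm, 95 spots), intermediate lung (over 200 to 500 µm, 166 spots) and far lung (over 500 µm, 695 spots). 3 spots touching no core group were left out. Levels are counts of a gene per 10000 counts of all genes (CP10k), summed over the spots of an area. They are compared between areas and not between genes. In such sums, fewer neutrophils and less RNA per neutrophil cannot be told apart.

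The 6 neutrophil genes together were 11.5-fold higher in far lung than in control lung (95% interval 11.2 to 11.9). All 6 were at least 2-fold higher in far lung, as were Cxcl1 and Cxcl2 among the ligands, so that 8 of 9 genes passed this fold, against 1.98% of all 15737 genes with at least 10 counts over both areas. All 9 genes had that many, Cxcl2 with 10 exactly. The median log2 ratio was 3.32 for the 6 neutrophil genes and 1.39 for the 3 ligands, beside -0.18 for all genes. S100a8 and S100a9 encode the subunits of calprotectin, the calcium-binding protein that fills the neutrophil cytosol. S100a8 stood at 0.788 CP10k in control lung (0.75 to 0.828) and at 10.3 CP10k in far lung (10.1 to 10.5), a ratio of 13.1 (12.4 to 13.8). S100a9 stood at 1.14 CP10k in control lung and at 13.5 CP10k in far lung, a ratio of 11.9 (11.4 to 12.4). Both were found in nearly every far spot. S100a8 had a count in 39.3% of control spots and 97.6% of far spots. With every spot thinned to 5000 counts these shares were 26.6% and 91.1%, and for S100a9 they were 36.2% and 94.6%.

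The surface receptors were higher as well. Csf3r had 249 counts in control lung (0.122 CP10k) and 627 in far lung (0.721 CP10k), a ratio of 5.89 (5.08 to 6.85). Cxcr2, the receptor of all 3 ligands, had 37 counts in control lung (0.0182 CP10k) and 169 in far lung (0.194 CP10k), a ratio of 10.7 (7.45 to 15.7). The interval of Cxcr2 lay above that of Csf3r. Il1b, the inflammatory cytokine interleukin-1 beta, which monocytes and macrophages also make, stood at 0.143 CP10k in control lung and 0.856 CP10k in far lung, a ratio of 5.98 (5.21 to 6.87). Retnlg, a resistin-like secreted protein of neutrophils, stood at 0.0664 CP10k in control lung and 0.626 CP10k in far lung, a ratio of 9.42 (7.79 to 11.5). The ratios of Csf3r and Il1b (5.89 and 5.98) were thus below those of S100a8, S100a9, Cxcr2 and Retnlg (9.42 to 13.1), with no overlap of intervals between these groups. The markers of macrophages and monocytes stood at 3.23 CP10k in control lung and 5.24 in far lung. Of these 10 markers 2 were at least 2-fold higher, beside 1.98% of all genes, and their part in the difference of Il1b was not tested.

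The difference was spread over the section. When each area was divided by position into 4 parts, the 6 genes ranged from 1.9 to 2.58 CP10k in the control parts and from 21.5 to 33.9 CP10k in the far parts, with no overlap. For each of the 6 genes alone the lowest far part was also above the highest control part, as for Csf3r (0.0803 to 0.171 CP10k against 0.578 to 0.855). Parts of 1 section are not replicates. The control section held cardiac muscle markers at 20 CP10k that were nearly absent from far lung (0.0092 CP10k), and without the control and far spots richest in them the ratio of the 6 genes was 11.4. Red blood cell genes, which mark blood in the tissue, stood at 554 CP10k in control lung and 587 in far lung. S100a8 and S100a9 made up most of the sum, and the other 4 genes without them were 6.84-fold higher.

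**Figure D1:**
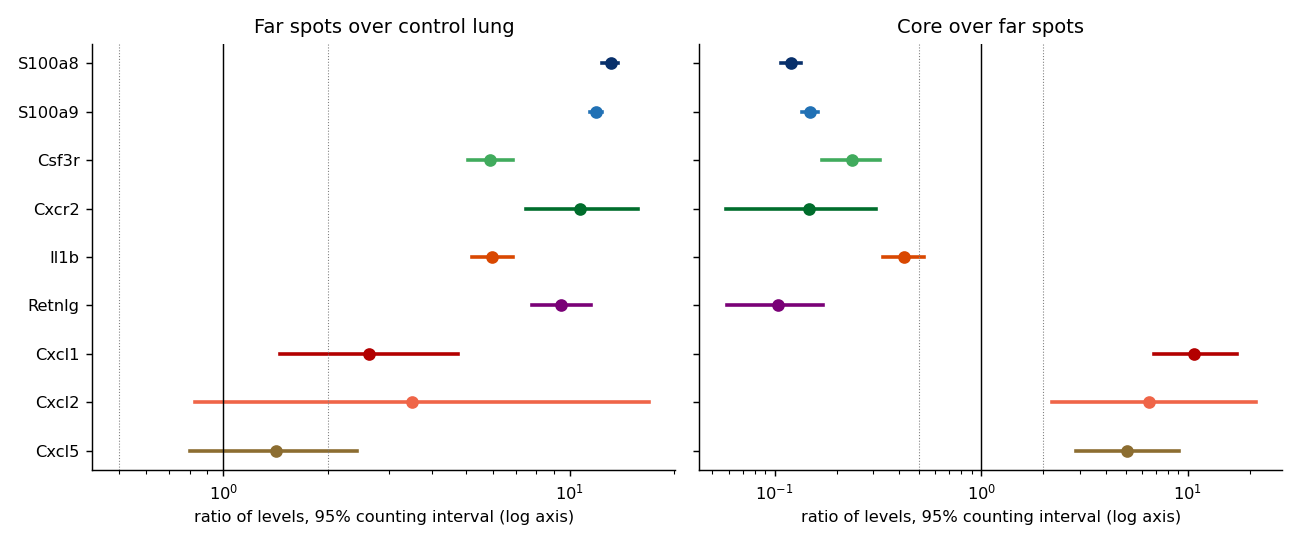
Ratios of CP10k for each of the 9 genes on a log axis, far lung over control lung and core over far lung, with exact 95% counting intervals. The 6 neutrophil genes sit above 1 in the first comparison (5.89 to 13.1) and below 1 in the second (0.104 to 0.423), while the 3 ligands sit above 1 in both, with intervals of Cxcl2 and Cxcl5 that include 1 in the first.

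The summed ligands differed less between far lung and control lung than the neutrophil genes did. Cxcl1 had 24 counts in control lung (0.0118 CP10k) and 27 in far lung (0.0311 CP10k), a ratio of 2.63 (1.46 to 4.76). Cxcl2 had 4 counts in control lung and 6 in far lung, a ratio of 3.51 whose interval (0.832 to 16.9) included 1. Cxcl5 had 38 counts in control lung (0.0187 CP10k) and 23 in far lung (0.0265 CP10k), a ratio of 1.42 (0.805 to 2.44) that became 0.418 with every spot thinned to 5000 counts. Of the 3, only the interval of Cxcl1 stayed above 1. Summed, the ligands were 1.98-fold higher in far lung (1.36 to 2.88), and this interval lay below that of every neutrophil gene. Among the 15737 genes ordered by this ratio, the neutrophil genes ranked between 35 and 62, Cxcl2 112, Cxcl1 179 and Cxcl5 889. Over the whole metastatic section, core included, the ratios to control lung were 7.11 for Cxcl1 (4.56 to 11.5) and 6.59 for Cxcl2 (2.19 to 26.6). Cxcl5 stood at 2.52 (1.67 to 3.85), and the neutrophil genes between 5.33 (Csf3r) and 10.4 (S100a8).

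Inside the metastasis the neutrophil genes were low. Their summed level was 3.87 CP10k in the core (3.62 to 4.12), 19.3 in the margin, 22.2 in intermediate lung and 26.2 in far lung, so that the core stood 6.78-fold below far lung (6.35 to 7.24). All 6 genes were at least 2-fold lower in the core, where 20.4% of all 14203 genes were, so that a lower level in the core was common. Their median log2 ratio was -2.71 beside 0.27 for all genes. The smaller core group stood at 0.255 of far lung (0.211 to 0.306) and the larger at 0.139 (0.13 to 0.149). Without S100a8 and S100a9 the core ratio was 0.262. The core was not empty of these genes, since 88.1% of its spots had a count of at least 1 of the 6 genes and their level was 1.7-fold that of control lung (1.58 to 1.82). That excess did not hold at depth. Core spots at the edge stood at 7.69 CP10k, beside 2.27 in control lung (2.21 to 2.34). At 300 to 400 µm inside, the level was 1.52 (1.27 to 1.82), below control lung. At 500 to 600 µm it was 1.89 (1.53 to 2.31), with an interval that overlapped that of control lung.

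**Figure D2:**
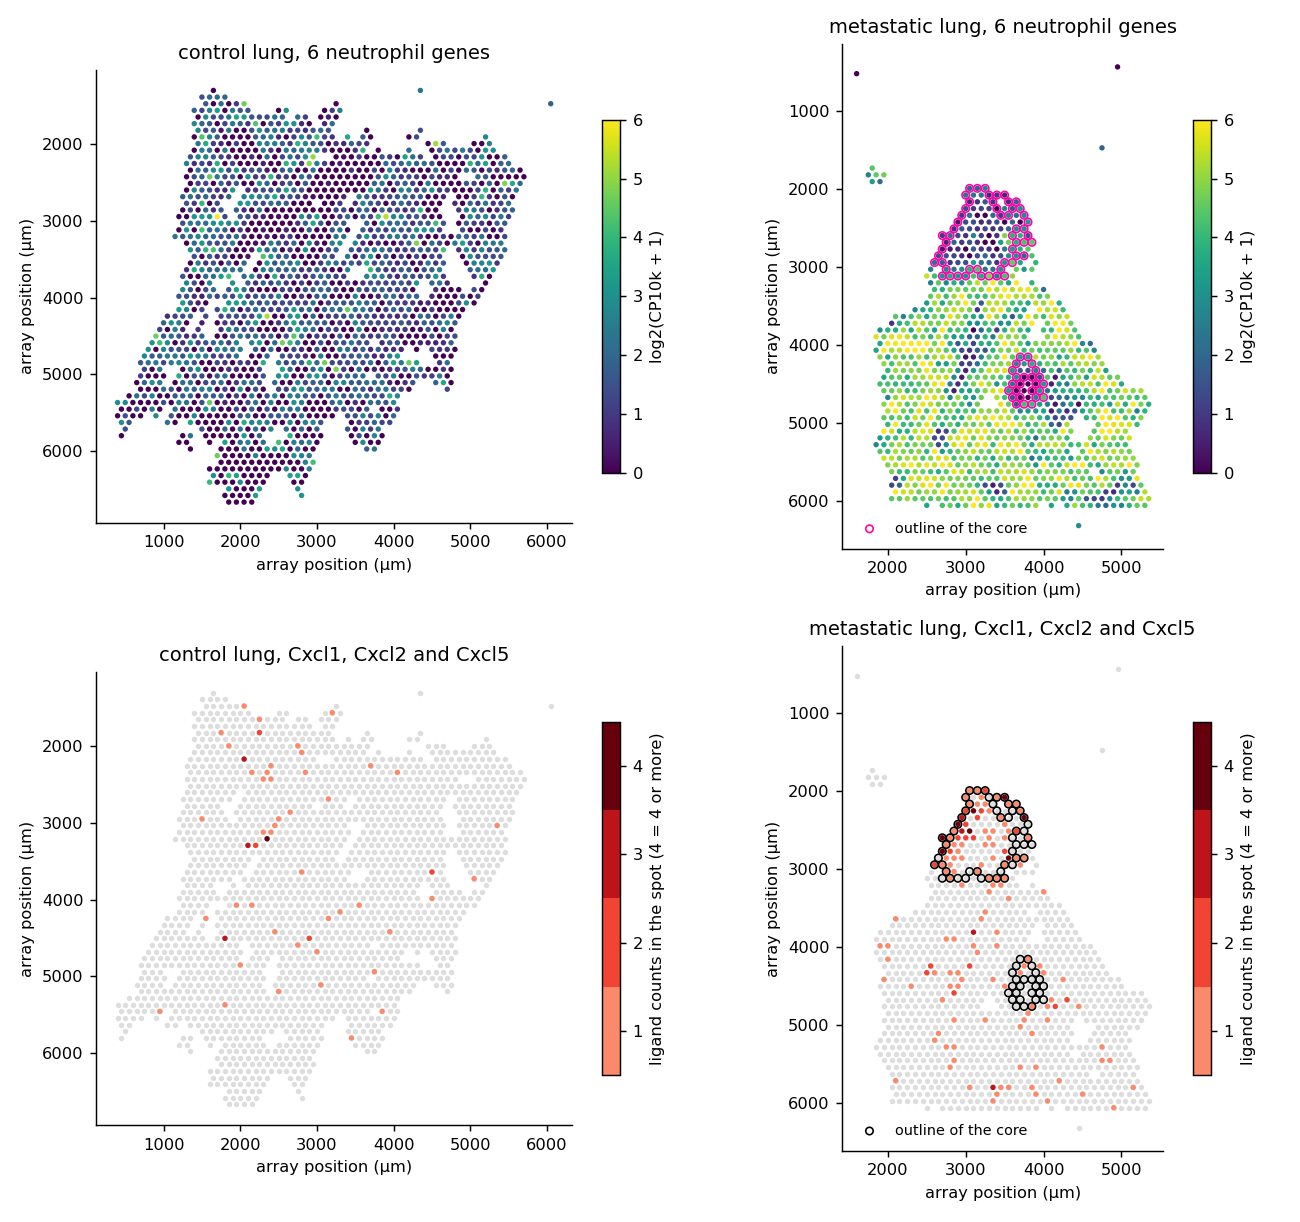
Maps of the control and metastatic sections, with the 6 neutrophil genes as log2(CP10k + 1) per spot and the summed counts of the 3 ligands per spot, with the metastasis core outlined. The core is low in neutrophil genes (3.87 CP10k against 26.2 in far lung) and holds most ligand counts of the metastatic section (126 of 211).

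Gene by gene the depth of this deficit varied. Retnlg was lowest relative to far lung, with 16 counts in the core (0.0651 CP10k), 40 in the margin (0.307 CP10k), 121 in intermediate lung (0.556 CP10k) and 544 in far lung. Its core level was 9.61-fold below far lung (5.86 to 16.9) and 0.981 times that of control lung (0.545 to 1.65). The 16 core counts lay in 10 spots, with 7 of them in 1 spot. No Retnlg count fell in the 20 spots 500 to 600 µm inside the core, which allows up to 0.0603 CP10k, or in the 46 spots 300 to 400 µm inside it, which allows up to 0.0375 CP10k. S100a8 stood at 1.24 CP10k in the core, 6.88 in the margin, 8.4 in intermediate lung and 10.3 in far lung, 8.34-fold lower in the core than in far lung (7.44 to 9.38). S100a9 stood at 2 CP10k in the core, 9.92 in the margin, 11.5 in intermediate lung and 13.5 in far lung, 6.73-fold lower in the core (6.15 to 7.38). Over these 4 areas both calprotectin genes were higher with each step outward, but not over finer rings, where S100a8 stood at 10.3 CP10k at 300 µm, 7.84 at 400 to 500 µm and 11.9 at 800 to 900 µm.

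The receptors did not follow the order of the 4 areas outside the core. Csf3r stood at 0.171 CP10k in the core, 0.927 in the margin, 0.767 in intermediate lung and 0.721 in far lung, and Cxcr2 at 0.0285, 0.261, 0.202 and 0.194 CP10k in the same order. Both were lower in the core than in far lung, Csf3r 4.22-fold (3.08 to 5.91) and Cxcr2 6.82-fold (3.24 to 17.2, on 7 core counts). Outside the core both had their highest level in the margin, where Csf3r was 1.29-fold its far level (1.05 to 1.56) and Cxcr2 1.34-fold (0.899 to 1.95). As log2 ratios these were 0.36 and 0.42, near the median of 0.28 for all genes. Against intermediate lung the margin ratio was 1.21 for Csf3r (0.949 to 1.54) and 1.29 for Cxcr2 (0.799 to 2.06), with intervals that included 1. Finer rings showed no steady fall outward. At 100, 200 and 300 µm Csf3r stood at 0.819, 1.03 and 0.973 CP10k, and Cxcr2 at 0.309, 0.213 and 0.275. By contrast the margin held S100a8 at 0.666 (0.621 to 0.713), S100a9 at 0.736 (0.694 to 0.78) and Retnlg at 0.49 (0.346 to 0.676) times the far level. None of the 8 members with enough counts (all but Cxcl2) was 2-fold higher in the margin than in far lung, a fold passed by 9.29% of 13966 genes, and Cxcl1 came nearest at 1.97 (0.775 to 4.47).

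Il1b was the least reduced. It stood at 0.362 CP10k in the core, 0.996 in the margin, 0.758 in intermediate lung and 0.856 in far lung. Its core level was 2.36-fold below far lung (1.89 to 2.98), the only interval among the 6 genes that lay below 3, and 2.53-fold above control lung (1.97 to 3.22). Deeper inside the core Il1b was near the 0.143 CP10k of control lung. It stood at 0.137 at 300 to 400 µm (0.0686 to 0.246) and 0.161 at 500 to 600 µm (0.0694 to 0.317). In the smaller core group, where only 15 Il1b counts were found, its level was equal to that of far lung (ratio 1, 0.558 to 1.66), and in the larger group it was 0.379 of it (0.294 to 0.482). Macrophage and monocyte markers stood at 19 CP10k in the core, 11.1 in the margin and 5.24 in far lung. Of these 10 markers 9 were at least 2-fold higher in the core than in far lung, as were 23.3% of all genes. In the core spots poorer in these markers, a split chosen after seeing the data, Il1b was 0.415 of far lung, beside 0.423 in the whole core. The part of macrophages and monocytes in the core level of Il1b was not tested.

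**Figure D3:**
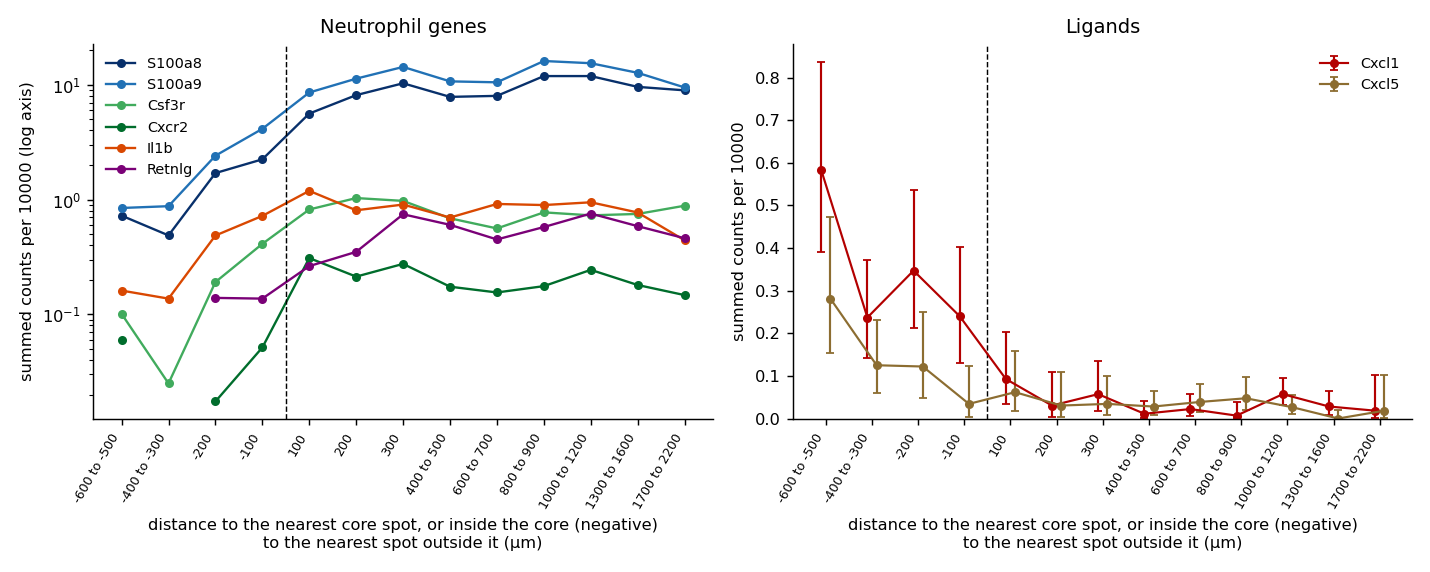
Level in CP10k against distance in µm from the core edge, with distances inside the core negative. The neutrophil genes are drawn on a log axis, without levels of 0, and Cxcl1 and Cxcl5 on a linear axis. Summed, the 6 neutrophil genes stand at 1.89 CP10k in the innermost ring and 1.52 in the next. They then climb to 7.69 at the edge and 16.7 at the first ring outside. Cxcl1 stands at 0.583 in the innermost ring and 0.0927 at the first ring outside, and Cxcl5 at 0.281 and 0.0618.

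The change at the core edge was graded over several spots. From the centre outward the 6 genes stood at 1.89 CP10k in the 20 spots 500 to 600 µm inside the edge, 1.52 at 300 to 400 µm, 4.95 at 200 µm and 7.69 in the spots at the edge. The first ring outside stood at 16.7 CP10k, the second at 21.8 and the third at 27.5. As a ratio of neighbouring rings, the largest step lay inside the core, from 300 to 200 µm within its edge. AT2 markers were graded over the same rings. From the centre outward they stood at 7.26, 27.5, 67.4 and 103 CP10k inside the core and 170 in the first ring outside. Core spots toward the edge thus also held more lung transcripts, and the part of such mixed spots in the gradient was not tested. Beyond the third ring the level moved between 20.3 and 30.5 CP10k with no steady trend. Split at 1 spot from the edge, the inner core (99 spots) stood at 2.67 CP10k and the outer core (52 spots) at 7.69, a ratio of 0.348 (0.305 to 0.396). The inner core alone was 9.8-fold below far lung (8.97 to 10.7).

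Other properties of the areas moved with these genes. Red blood cell genes stood at 26.6 CP10k in the core, 97 in the margin, 252 in intermediate lung and 587 in far lung. All 5 were at least 2-fold lower in the core, as were 20.4% of all genes. Endothelial markers stood at 1.57, 14.1, 16.8 and 17.7 CP10k in the same order. Against only the far spots lowest in red blood cell genes, the core level of the 6 genes was 0.264 of far lung in place of 0.148, and that of Il1b 0.608. Ordered by red blood cell genes into 4 groups, the far spots stood at 14.7, 32.3, 35.9 and 32.3 CP10k of the 6 genes from the poorest group to the richest, so that the level differed between the poorest group and the others and not steadily with these genes. That poorest group also held 19 of the 23 Cxcl5 counts of far lung. The airway secretory gene Scgb1a1 alone took 22.3% of all counts in far lung, 15.2% in control lung and 0.338% in the core. With the abundant blood, surfactant, secretory, mitochondrial and immunoglobulin genes left out of the totals, the core ratio was 0.103 and the far lung to control ratio 12.6. The part of blood content in the core deficit was not tested.

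Relative to S100a9, the makeup of the neutrophil genes differed between areas. S100a8 kept close to S100a9, with 69.4 counts per 100 S100a9 counts in control lung, 76.6 in far lung, 73 in intermediate lung, 69.3 in the margin and 61.8 in the core. Csf3r stood at 10.8 per 100 in control lung, 5.35 in far lung, 6.66 in intermediate lung, 9.35 in the margin and 8.54 in the core. Il1b stood at 12.6 in control lung (11.1 to 14.2), 6.35 in far lung (5.89 to 6.84), 6.58 in intermediate lung, 10 in the margin (8.32 to 12) and 18.1 in the core (14.3 to 22.7). Csf3r and Il1b were thus low relative to S100a9 in far and intermediate lung, and higher in the margin, the core and control lung. For Csf3r, however, the interval of intermediate lung (5.66 to 7.79) overlapped those of the margin (7.7 to 11.3) and the core (6.08 to 11.7). Retnlg went the other way near the core, with 4.64 per 100 in far lung (4.25 to 5.06) and 3.09 in the margin (2.2 to 4.23). Cxcr2 stood between 1.42 and 2.63 per 100 in all areas, with overlapping intervals apart from those of margin and far lung.

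**Figure D4:**
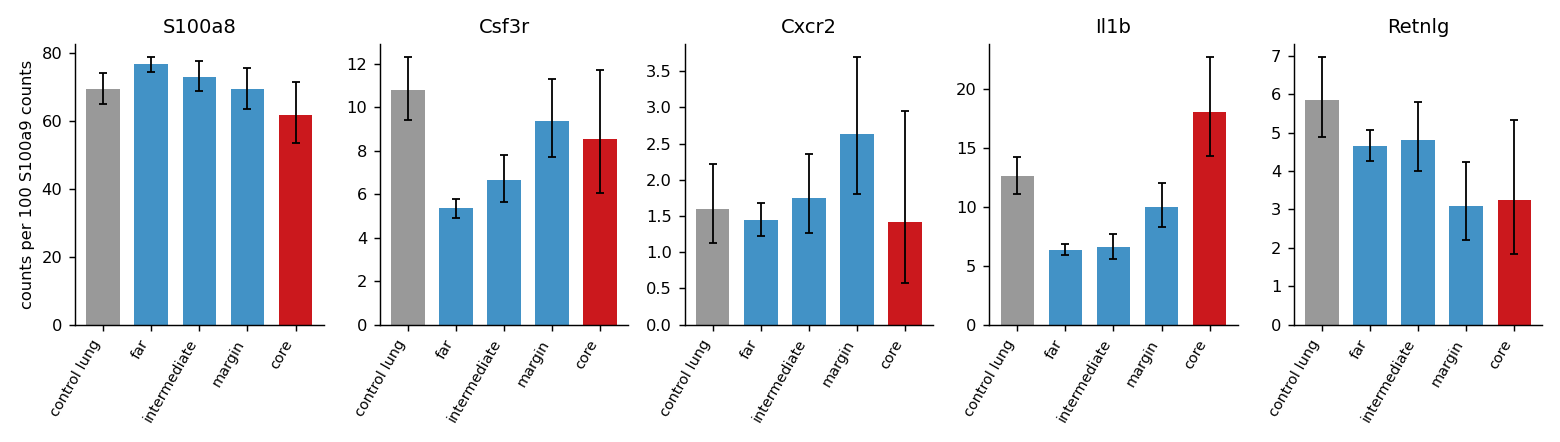
Counts of S100a8, Csf3r, Cxcr2, Il1b and Retnlg per 100 S100a9 counts, as bars from 0 with exact 95% intervals, in control lung, far lung, intermediate lung, margin and core. Il1b is lowest in far lung (6.35) and highest in the core (18.1).

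Among the far spots the neutrophil genes were patchy. The 69 far spots richest in the 6 genes held 28.6% of their counts and 8.81% of all counts, and spots touching them stood at 26.1 CP10k against 17.5 elsewhere. Over the 695 far spots S100a8 and S100a9 varied together (Pearson r 0.80 of the logged levels), and S100a9 varied less closely with Il1b (0.40), Csf3r (0.34), Retnlg (0.34) and Cxcr2 (0.24). These spots share 1 library, and the low counts of the last 4 genes limit r. Over the 956 spots outside the core, the genes most like the sum of the 6, among 3622 genes with at least 500 counts, were Sftpc (0.66), Inmt (0.65), Ace (0.64), Ly6a (0.64) and Epas1 (0.63). These are genes of AT2 cells (Sftpc) and of the alveolar wall and its vessels. As a share of all counts, neutrophil genes were low in airway-rich spots. In the 69 far spots richest in airway markers the 6 genes stood at 4.26 CP10k, against 33.1 in the other far spots, a ratio of 0.129 (0.12 to 0.138). Control lung showed a like ratio, at 0.322 and 2.77 CP10k (0.116, 0.097 to 0.138).

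All 3 ligands had their highest level in the core, where the neutrophil genes were lowest. Cxcl1 had 82 counts in the core (0.334 CP10k), 8 in the margin (0.0613), 6 in intermediate lung (0.0276) and 27 in far lung (0.0311), and was 10.7-fold higher in the core than in far lung (6.88 to 17.3). Cxcl5 had 33 counts in the core (0.134 CP10k), 6 in the margin (0.046), 7 in intermediate lung (0.0321) and 23 in far lung (0.0265), a ratio of 5.08 (2.89 to 9.06). Cxcl2 had 11 counts in the core (0.0448 CP10k), none in the margin, which allows up to 0.023 CP10k, 1 in intermediate lung and 6 in far lung, a ratio of 6.49 (2.2 to 21.4). All 3 were at least 2-fold higher in the core, as were 23.3% of genes. Among 14203 genes they ranked 248 (Cxcl1), 479 (Cxcl2) and 690 (Cxcl5) from the highest. Summed, they stood at 0.513 CP10k in the core and 0.0644 in far lung, a ratio of 7.96 (5.77 to 11.1), and 15.8-fold above control lung (11.6 to 21.6).

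The core spots were deeper than far spots, with median counts of 15342 and 10678. Cxcl1 had a count in 37.7% of core spots and 3.45% of far spots, and with every spot thinned to 5000 counts in 14.4% and 1.4%. The corresponding thinned shares were 7.19% and 0.311% for Cxcl5, and 2.16% and 0.155% for Cxcl2. Within the core, the summed ligands were 2.14-fold higher in the inner than in the outer part (1.26 to 3.88), while the neutrophil genes were lower there. Of the single ligands only Cxcl5 had an interval above 1, at 4.83 (1.23 to 41.6), with 31 counts in the inner and 2 in the outer core. The Cxcl1 ratio was 1.51 (0.843 to 2.91), and Cxcl2 had 11 counts in the inner core and none in the outer, with an interval from 0.782 upward that included 1. The larger core group held 122 of the 126 ligand counts and 2282205 of the 2457043 counts of all genes. The smaller group had 4 ligand counts, a ratio over far lung of 3.55 whose interval (0.935 to 9.61) included 1. Of 57 core spots with a Cxcl1 count and 21 with a Cxcl5 count, 11 held both.

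Between the groups of spots richest and poorest in neutrophil genes, the summed ligands showed no clear excess or deficit. Spots with a ligand count, however, were lower in neutrophil genes than spots without. Of the single ligands, only Cxcl5 in far lung had an interval that left out 1. With far spots ordered by the 6 genes into 4 groups of about equal size, the ligands had 32, 6, 8 and 10 counts from the poorest to the richest group (0.103, 0.032, 0.0432 and 0.0536 CP10k). The richest group stood at 0.519 of the poorest, with an interval (0.228 to 1.08) that included 1. Cxcl5 had 18 counts in the poorest group and 1 in the richest, a ratio of 0.0923 (0.00222 to 0.585), and Cxcl1 had 13 and 7 (0.895, 0.302 to 2.41). Without the 10% of spots richest in airway markers the summed ratio turned to 1.33. In the core the same ratio was 0.585 (0.31 to 1.06) and in control lung 0.57 (0.248 to 1.24). Far spots with a ligand count stood at 13.4 CP10k of the 6 genes (12.7 to 14.1) and those without at 28 (27.6 to 28.4). Their median depths were 17667.5 and 10479 counts. Core spots with a ligand count stood at 3.42 CP10k of the 6 genes (3.13 to 3.73) and those without at 4.55 (4.14 to 5), at median depths of 20025 and 11276.5 counts. With core spots ordered by red blood cell genes instead, both were higher in the richest of 4 groups than in the poorest. The ratio was 1.81 for the summed ligands (1.11 to 3.03) and 3.24 for the 6 genes (2.56 to 4.13).

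Cxcl5 had a second place outside the core, in airway-rich spots. In far lung 18 of its 23 counts fell in the 69 spots richest in airway markers, 11.5-fold over the others (4.11 to 39.5). In control lung 26 of its 38 counts fell in the 188 spots richest in them, 8.49-fold over the others (4.14 to 18.5). Cxcl1 showed no such place, with ratios of 1.34 (0.508 to 3.21) in far lung and 1.03 (0.301 to 2.86) in control lung. Cxcl2 had no count in these airway-rich spots of either section, out of 6 and 4 counts.

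**Figure D5:**
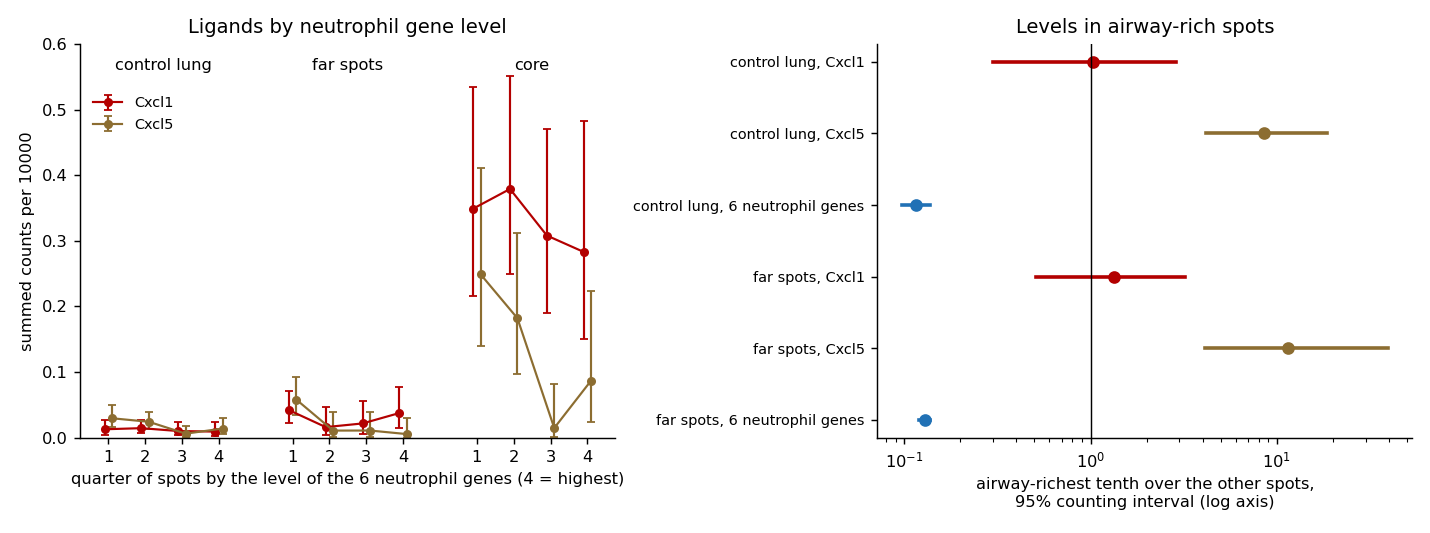
Levels of Cxcl1 and Cxcl5 in CP10k in 4 groups of spots ordered by the 6 neutrophil genes, in control lung, far lung and core, and their ratios for the 10% of spots richest in airway markers over the others, with exact 95% intervals. Cxcl5 falls from 18 counts in the poorest far group to 1 in the richest, and stands 11.5-fold higher in airway-rich far spots.

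Other genes of the same cells and pathways were examined as lists. Beside 1.98% of all genes, 12 of 22 other mature neutrophil genes with enough counts were at least 2-fold higher in far than control lung. Their median log2 ratio was 1.29. Among those with at least 50 counts the highest were Stfa2l1, a stefin, at 20.7-fold (11.6 to 40), and the C-type lectins Clec4e at 4.74 and Clec4d at 4.34. The lowest with that many were Ccrl2 (0.76), Hdc (0.811), the histamine-forming enzyme, and G0s2 (0.924). Ly6g, the surface marker used to stain mouse neutrophils, had 5 counts in control lung, 19 in far lung and none in the core. Of 8 granule genes, made mainly in immature neutrophils of the marrow, 6 were at least 2-fold higher in far lung, beside the same 1.98%. With at least 50 counts the highest were Camp (8.75), Ngp (6.83) and Mpo (4.97), and among the rarer genes Elane had 4 counts in control lung and 9 in far lung and Ctsg none and 12. The lowest with at least 50 counts were Ltf (1.09), Lcn2 (1.83), which epithelial cells also make, and Prtn3 (4.41).

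In the core the granule genes were mostly low. Of the 7 granule genes with enough counts 5 were at least 2-fold lower than in far lung, as were 20.4% of all genes, Camp with 5 counts against 449 and Ngp with 1 against 371. Prtn3 was 2.52-fold higher (1.7 to 3.72). Of the 22 other mature neutrophil genes 5 were lower and 5 higher, close to the 20.4% and 23.3% of all genes. Among those higher were Padi4, a histone-citrullinating enzyme, with 67 counts in the core and 14 in far lung, and Itgam, an integrin that macrophages also carry, at 4.17-fold (3.35 to 5.18). Their median log2 ratio was -0.11, beside -2.71 for the 6 neutrophil genes and 0.27 for all genes.

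Beside 1.98% of all genes, 3 of 20 other neutrophil recruitment genes were at least 2-fold higher in far lung than in control lung. Their median log2 ratio was 0.22. The highest with at least 50 counts were the complement receptor C5ar1 (2.56), the interleukin-1 antagonist Il1rn (1.76) and Alox5ap (1.73), which serves leukotriene synthesis. The lowest were Cxcl15, a chemokine of lung epithelium (0.77), the adhesion molecule Icam1 (0.783) and Il1r1 (0.823). Between core and far lung 5 of 21 were lower and 7 higher, beside 20.4% and 23.3% of all genes. Csf3, which encodes G-CSF, had 9 counts in the core, 1 in the margin, 1 in far lung and none in control lung. Il17a had no count in any of these areas.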

How the data were processed

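The deposited files held raw counts per gene and spot over tissue, which the authors made with Space Ranger 1.3.1 on build mm10, per the labels. Raw counts were summed over the spots of each area, divided by all counts there and multiplied by 10000, so no log or scaling entered. Ratios had exact 95% binomial intervals and levels exact 95% Poisson intervals. Areas were built from log counts of the metastatic section: k-means with 5 clusters on 20 principal components of 2000 variable genes, without the members and the neutrophil lists. The cluster scoring highest for core markers, in groups of at least 5 touching spots, was the core, with touching spots taken as 100 µm apart. These areas were not the authors' niches. RNA spreading between spots would blur the edges of areas. A gene was counted as higher or lower at 2-fold with at least 10 counts over both areas. 0 counts allowed up to 3. Shares were also taken with spots thinned to 5000 counts, which left out 362 control and 82 metastatic spots. The named genes were the 9 members, the 3 highest and 3 lowest far to control ratios of each list among genes with at least 50 counts, genes with no count, and the 5 genes most correlated with the neutrophil sum; Ly6g, Elane, Ctsg, Padi4, Itgam, Csf3 and the values of list genes in the core were chosen after their values were seen. BC100530 was on a list and not found by that symbol. The members and lists were chosen with earlier results of these data known. The arithmetic of the ratios and fold limits was tested on simulated data with known folds, which says nothing about spread between animals. Promoters came from RefSeq tables of GRCm38.p6. Alternatives covered library size, per-spot means, thinning, spot filters, cluster number, core definition, distance and fold limits, and 5 more were chosen after seeing the data. Clustering used scikit-learn 1.9.0 and intervals scipy 1.17.1, under Python 3.11.15 with pandas 2.3.3, and figures were drawn with matplotlib 3.10.9 after sums in numpy 2.4.6.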

Additional observations from a re-analysis of the deposited data

How the results depend on the processing

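All directions of the summed neutrophil genes held under the alternatives run. The far to control ratio (11.5) was 12.6 with totals taken without the most abundant gene classes, 12 without the airway-richest spots, 10.7 with the core set by marker score and 6.84 without S100a8 and S100a9. The core to far ratio (0.148) was 0.103 with those totals, 0.116 without airway-rich spots, 0.166 with 4 clusters, 0.255 for the smaller core group alone, 0.262 without S100a8 and S100a9, 0.102 for the inner core and 0.264 against far spots poorest in red blood cell genes. The ligand core to far ratio (7.96) was 5.56, 3.55 and 5.61 under those totals, the smaller core group and those far spots. The ligand ratio of neutrophil-rich over neutrophil-poor far spots (0.519) turned to 1.33 without airway-rich spots, where the 18 Cxcl5 counts lay. In the smaller core group alone the core to far ratio of Il1b became 1, and that of Cxcl2 became 0 on no counts. The Cxcl5 ratio of core over far lung ranged from 2.16 to 17.4 and stayed above 1. The count of members 2-fold higher in far lung stayed between 7 and 8, and of those 2-fold lower in the core between 4 and 6. The inner core and the red blood cell comparison were chosen after seeing the data. No paired analysis was possible because each condition had 1 section. Depth limits the ligands most, with 4 to 82 counts per gene in control lung, core and far lung.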

Other observations

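The core touched the border of the metastatic section, and its 36 border spots differed from its 115 inner spots in the ligands. The 3 ligands stood at 0.767 CP10k in border core spots (0.586 to 0.988) and 0.394 in the others (0.305 to 0.501), and Cxcl2 had 9 of its 11 core counts there. The 6 neutrophil genes stood at 3.04 CP10k in border core spots and 4.25 in the others. Mesothelial markers, which line the lung surface, stood at 1.15 and 0.334 CP10k in the same spots. In far lung, border spots held no excess of ligands, at 0.037 CP10k against 0.0694 inside, while mesothelial markers stood at 1.53 and 0.138 CP10k. The part of the section border in the core levels was not tested.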
